A study of Mus musculus with 12 samples.

Results

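The expression of 6 B-lineage surface genes was examined in RNA-seq of mouse splenic B cells: Tnfrsf13b, Tnfrsf13c and Tnfrsf17, which encode the receptors of BAFF and APRIL, and Sdc1, Cd38 and Cd93, which encode surface proteins followed in plasma cell and B cell staging. They were taken by gene symbol, with the transcript entries of a symbol added together, and are 6 of 32699 symbols. All 6 passed the low-count filter that left 19125 genes for testing. The 12 libraries formed 4 groups of 3: Chd4 knockout (KO) cells stimulated for 48 hr (replicates 10 to 12), wild-type (WT) cells under the same stimulation (7 to 9), unstimulated KO cells at 0 hr (4 to 6) and unstimulated WT cells at 0 hr (1 to 3). Stimulation used LPS at 10 µg/ml together with IL-4 at 25 ng/ml. No group held unstimulated cells at 48 hr, so the effects of stimulation and of the 48 hr themselves cannot be told apart. In what follows, a change with stimulation means 48 hr against 0 hr. LPS is a bacterial lipopolysaccharide that activates B cells through Toll-like receptor 4, IL-4 is a cytokine that directs class switching toward IgG1 and IgE, and CHD4 is the chromatin-remodelling ATPase of the NuRD complex. The way in which Chd4 was deleted, the deleted part of the gene, and the strain and age of the mice were not given in the sources used here. Whether replicates are different animals, different cultures or repeat libraries is not stated in the labels, and the p-values therefore reflect only variation among these libraries, which may be technical.

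BAFF and APRIL are TNF-family ligands that keep B-lineage cells alive. BAFF-R, the product of Tnfrsf13c, binds BAFF alone and sustains mature naive B cells. TACI, the product of Tnfrsf13b, binds both ligands, supports T-independent class switching and restrains B cell numbers, and BCMA, the product of Tnfrsf17, binds both ligands and maintains long-lived plasma cells. Syndecan-1 (CD138, from Sdc1) is a heparan sulfate proteoglycan that marks plasma cells and is also made by epithelia. CD38 is an NAD-consuming surface enzyme that is high on resting mouse B cells and lost from mouse germinal centre cells, while in human blood and marrow it is highest on plasma cells. CD93 marks immature mouse B cells and antibody-secreting cells, and is also carried by endothelial and myeloid cells.

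Chd4 RNA set the libraries labelled KO apart from those labelled WT at 48 hr, with a mean of 54.9 ± 18.2 CPM in KO and 107 ± 14.3 CPM in WT (SD, n = 3 each; log2 fold change -0.96, edgeR adjusted p = 0.038). KO replicates 10 to 12 held 51.3, 38.8 and 74.7 CPM, against 96.1 to 123 CPM in WT, so replicate 12 held the most Chd4 RNA of the 3 KO libraries. At 0 hr the means were 87.8 ± 15.3 CPM in KO and 86.8 ± 16.5 CPM in WT (n = 3 each; log2 fold change 0.02, adjusted p = 0.99), so at that time Chd4 RNA did not bear out the label, and KO at 0 hr stands for the libraries labelled KO. Reads outside a deleted part would still be counted. Total estimated counts ran from 38956484 to 53189198 per library. On principal component 2 the KO libraries were divided: replicate 12 of KO at 48 hr lay at 6.65, replicate 6 of KO at 0 hr at 9.74, the other KO libraries at -68 to -23.9 and the WT libraries at 15.3 to 37.4. Results that rest on these 2 KO libraries are given with and without them. The 2 were picked for lying toward WT in these same data, so leaving them out tends to widen KO against WT differences. Calls made only without them are therefore no independent support. Sex-linked RNA also differed by label: Xist averaged 0.94 CPM in KO and 78.7 CPM in WT at 48 hr, and the Y-linked Ddx3y 117 CPM in KO and 21.4 CPM in WT, so KO against WT and the difference in sex-linked expression cannot be told apart.

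Per kilobase of exon, Tnfrsf13c was the most abundant of the 6 genes in every group and Tnfrsf17 the least. Tnfrsf13c averaged 219 CPM per kb in KO and 255 in WT at 48 hr, and 206 in KO and 171 in WT at 0 hr. Tnfrsf13b and Cd38 changed places with stimulation: at 48 hr Tnfrsf13b came next, at 89.8 CPM per kb in KO and 70.6 in WT, followed by Cd38 at 26.2 in KO and 23.9 in WT. At 0 hr Cd38 came next, at 93.8 CPM per kb in KO and 116 in WT, followed by Tnfrsf13b at 32.4 in KO and 20.9 in WT. Below them stood Sdc1, with group means of 1.44 to 4.91 CPM per kb, and Cd93, with 0.655 to 1.46. No library of a gene overlapped the libraries of its neighbour in this order, in any of the 4 groups. CPM per kb was used only to order the genes, and all further levels are CPM, each count as a share of the TMM-scaled library size, not corrected for gene length.

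**Figure D1:**
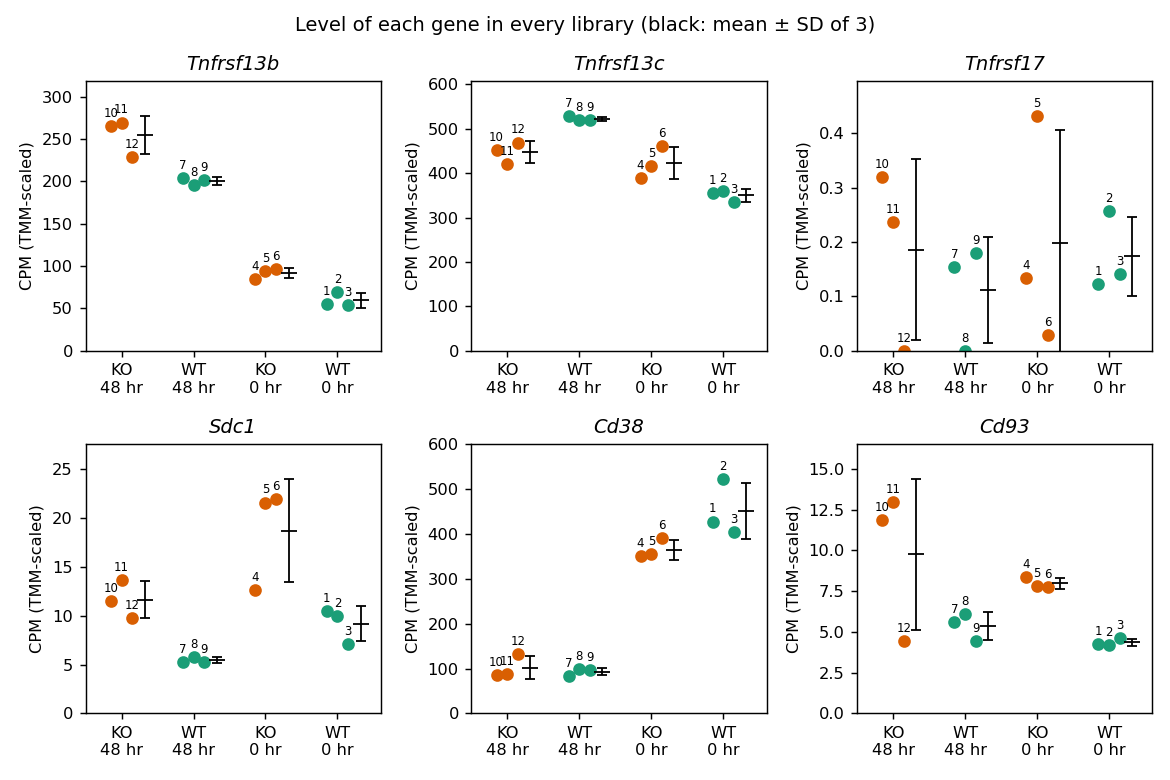
Level of each of the 6 genes in every library, in CPM on linear axes from 0, by group; points are libraries with their replicate number, and black bars are the mean ± SD of 3. KO libraries lie above WT libraries at both times for Tnfrsf13b and Sdc1, Tnfrsf13c lies below WT at 48 hr and above WT at 0 hr, and KO 48 hr replicate 12 stands apart for Cd93.

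Between genotypes, Sdc1 was the one gene of the 6 called at both times. At 48 hr, 1 of 6 was called (edgeR adjusted p below 0.05), Sdc1, higher in KO, where 2.02% of all tested genes were called in either direction, 1.47% as higher and 0.544% as lower. At 0 hr 2 of 6 were called, Sdc1 and Tnfrsf13b, both higher in KO, where 1.11% of all tested genes were called, 0.68% as higher and 0.429% as lower. Without KO 48 hr replicate 12 and KO 0 hr replicate 6, 2 of 6 were called at 48 hr, Sdc1 and Cd93, where that fit called 6.91% of all genes, 4.54% as higher and 2.37% as lower. In the same fit 2 of 6 were called at 0 hr, Tnfrsf13b and Cd93, where 3.45% of all genes were called, 2.37% as higher and 1.08% as lower. The libraries of KO and WT did not overlap for 3 of 6 genes at 48 hr (Tnfrsf13b and Sdc1 higher, Tnfrsf13c lower), where 20.2% of all tested genes did not overlap, 10.7% as higher and 9.53% as lower. They did not overlap for 5 of 6 at 0 hr (Tnfrsf13b, Tnfrsf13c, Sdc1 and Cd93 higher, Cd38 lower), where 14.9% of all tested genes did not, 7.02% as higher and 7.92% as lower. When the genotype effect at 48 hr was tested against that at 0 hr, edgeR called 0 of 6, with Tnfrsf13c alone under an unadjusted p of 0.05, and 0.115% of all genes, 0.068% as higher and 0.0471% as lower. DESeq2 called 1 of 6 there, limma-voom 0 and the likelihood ratio test 0.

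With stimulation, Tnfrsf13b rose and Cd38 and Sdc1 fell in both genotypes, and Tnfrsf13c rose in WT with TMM scaling but not with upper-quartile scaling. In KO 3 of 6 genes were called, 1 higher and 2 lower, where 70.7% of all tested genes were called, 33% as higher and 37.7% as lower. In WT 4 of 6 were called, 2 higher and 2 lower, where 73.9% of all genes were called, 33% as higher and 40.9% as lower. The 48 hr and 0 hr libraries did not overlap for 2 of 6 genes in KO (Tnfrsf13b higher, Cd38 lower), where 72.5% of all tested genes did not, 33% as higher and 39.5% as lower, and for 4 of 6 in WT (Tnfrsf13b and Tnfrsf13c higher, Sdc1 and Cd38 lower), where 79.8% did not, 34.9% as higher and 44.9% as lower. The shares of members are below those of all genes in each of these counts over both directions. The median log2 change of all tested genes was -0.30 in KO and -0.39 in WT, and upper-quartile scaling moved these medians to -0.93 and -1.06. It also moved the higher share of all calls to 28.8% in KO and 27.6% in WT, against 46.7% and 44.6% with TMM scaling. Changes over time are therefore also given relative to the median of all genes. Scaling shifts all genes nearly alike, so these relative values are nearly fixed across scalings and are no separate check. They do depend on which genes are tested. With a filter of 1 CPM in 3 libraries, the relative value of Tnfrsf13c went from 0.39 to 0.08 in KO and from 0.97 to 0.59 in WT. That of Sdc1 went from -0.38 to -0.69 in KO and from -0.36 to -0.73 in WT.

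**Figure D2:**
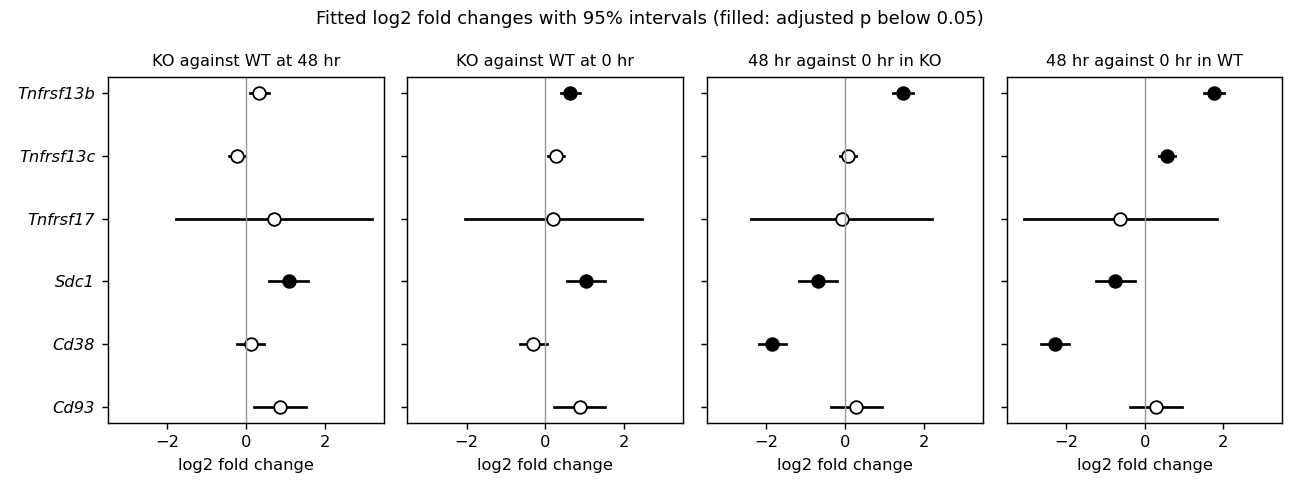
Fitted log2 fold changes (points) with 95% intervals (lines) for the 6 genes in 4 comparisons; filled points have an edgeR adjusted p below 0.05. Sdc1 is filled in all 4 panels and Tnfrsf13b in 3, and the Tnfrsf17 intervals are the widest, reaching from -1.76 to 3.21 for KO against WT at 48 hr.

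The ligand genes themselves, given for their role although neither was called between genotypes, had group means under 1 CPM. Tnfsf13b (BAFF) averaged 0.154 ± 0.091 CPM in KO and 0.215 ± 0.140 CPM in WT at 48 hr, and 0.507 ± 0.185 CPM in KO and 0.788 ± 0.345 CPM in WT at 0 hr (SD, n = 3 each). Tnfsf13 (APRIL) averaged 0.162 CPM in KO and 0.043 CPM in WT at 48 hr. Their adjusted p between genotypes ran from 0.41 to 0.93 with edgeR.

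Tnfrsf13b, the TACI gene, lies on chromosome 11 at 61126755 to 61149372 (mm10, plus strand), and no other annotated gene overlaps its exons. At 48 hr KO replicates 10 to 12 held 265, 270 and 229 CPM, against 204, 195 and 202 CPM in WT replicates 7 to 9. At 0 hr KO replicates 4 to 6 held 85.1, 94.3 and 96.4 CPM, against 55.2, 69.1 and 53.9 CPM in WT replicates 1 to 3. Every KO library stood above every WT library of its time, and every 48 hr library above every 0 hr library. The log2 fold change of KO against WT was 0.35 at 48 hr (SE 0.11, 95% interval 0.10 to 0.59, adjusted p = 0.15), which was not called, and 0.63 at 0 hr (SE 0.11, 95% interval 0.38 to 0.88, adjusted p = 0.016). The 0 hr call was lost without WT 0 hr replicate 1 (adjusted p = 0.098) or 3 (0.105) and in a fit of the 6 libraries of 0 hr alone (0.116), with log2 values of 0.56 to 0.76 over the 12 fits that each left out 1 library. The difference between the genotype effects at 48 hr and 0 hr was -0.28 (95% interval -0.63 to 0.06, adjusted p = 0.68).

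Over 48 hr of LPS and IL-4, Tnfrsf13b rose in both genotypes. Its level was 255 ± 22.4 CPM at 48 hr and 91.9 ± 6.05 CPM at 0 hr in KO, a log2 fold change of 1.47 (SE 0.12, adjusted p = 6.7e-08). In WT it was 200 ± 4.53 CPM at 48 hr and 59.4 ± 8.48 CPM at 0 hr, a log2 fold change of 1.75 (SE 0.12, adjusted p = 1.1e-08; n = 3 each). Relative to the median of all genes these changes were 1.77 and 2.14, and both calls held in all 12 fits that left out 1 library.

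The promoters of the 2 genes called higher in KO at 0 hr, Tnfrsf13b and Sdc1, are shown so that their sequence makeup can be compared. Each is the 250 bases before the RefSeq start (GRCm38.p6), 5′ to 3′ on the gene's strand, at chr11:61126505-61126754 and chr12:8771146-8771395. Capitals mark matches on either strand to the TATA box TATAAA, the GC box GGGCGG, the AP-1 site TGANTCA or the kappaB consensus. The Sdc1 window ends inside the GENCODE gene, which starts at 8771323.
Tnfrsf13b: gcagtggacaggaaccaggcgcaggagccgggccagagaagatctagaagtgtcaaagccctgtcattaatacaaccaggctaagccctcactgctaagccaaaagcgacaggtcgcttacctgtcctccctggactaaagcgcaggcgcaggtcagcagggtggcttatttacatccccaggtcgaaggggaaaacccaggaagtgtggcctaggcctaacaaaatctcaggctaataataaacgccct
Sdc1: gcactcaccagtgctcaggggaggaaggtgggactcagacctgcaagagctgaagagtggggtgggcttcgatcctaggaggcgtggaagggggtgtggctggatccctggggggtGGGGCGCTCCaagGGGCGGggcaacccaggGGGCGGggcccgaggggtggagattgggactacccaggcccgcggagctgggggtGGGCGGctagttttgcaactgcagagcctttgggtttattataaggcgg
The Tnfrsf13b window held none of these motifs and no CANNTG (E-box). The Sdc1 window held GC boxes at -121, -104 and -49 from the start, 1 kappaB match at -134 and 1 E-box at -34, and none of its marked matches overlapped another. Among 32851 promoter windows of this length, 32.7% held a GC box, 7.25% a kappaB match, 66.2% an E-box, 12.4% TATAAA and 6.75% the AP-1 letters. Of the other members, Tnfrsf13c held 2 overlapping GC boxes, Tnfrsf17 held TATAAA and 1 GC box, Cd38 held none of the marked motifs, and Cd93 was not matched in the promoter table. The E-box letters occurred 4 times for Tnfrsf13c, 2 times for Tnfrsf17 and 3 times for Cd38. The Cd38 window, 43868559 to 43868808 on chromosome 5, lies wholly inside the GENCODE gene, which starts at 43868553. A match of letters is a description of the sequence and says nothing of a factor bound there.

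Tnfrsf13c, the BAFF-R gene (chromosome 15, 82221743 to 82224369, minus strand), had opposite genotype differences at the 2 times. At 48 hr KO replicates 10 to 12 held 452, 421 and 469 CPM, against 528, 520 and 520 CPM in WT replicates 7 to 9. At 0 hr KO replicates 4 to 6 held 389, 417 and 461 CPM, against 356, 360 and 334 CPM in WT replicates 1 to 3. All KO libraries were lower than WT at 48 hr and all were higher than WT at 0 hr, without overlap. The log2 fold changes were -0.22 at 48 hr (SE 0.10, adjusted p = 0.29) and 0.27 at 0 hr (SE 0.10, adjusted p = 0.27), and neither was called by edgeR. DESeq2 called both, with -0.28 at 48 hr (adjusted p = 0.021) and 0.26 at 0 hr (adjusted p = 0.046).

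Between the 2 times the genotype effect on Tnfrsf13c differed by -0.49 (SE 0.13, 95% interval -0.78 to -0.20, unadjusted p = 0.0027, edgeR adjusted p = 0.27). DESeq2 gave -0.55 for it, with an adjusted p of 0.0016. With stimulation, Tnfrsf13c in WT rose to 523 ± 4.64 CPM at 48 hr, against 350 ± 14.1 CPM at 0 hr (n = 3 each; log2 fold change 0.58, SE 0.10, adjusted p = 0.0001). In KO it had 448 ± 24.1 CPM at 48 hr and 422 ± 36.2 CPM at 0 hr (log2 fold change 0.08, 95% interval -0.12 to 0.29, adjusted p = 0.44), and the libraries overlapped. Relative to the median of all genes the changes were 0.39 in KO and 0.97 in WT. With upper-quartile scaling the values turned to -0.55 in KO (adjusted p = 4.3e-05) and -0.10 in WT (adjusted p = 0.30), so the direction over time depends on the scaling.

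Tnfrsf17, the BCMA gene (chromosome 16, 11313812 to 11320074, plus strand), was close to absent at this depth. KO replicates 10 to 12 held 13, 9 and 0 estimated counts at 48 hr, against 6, 0 and 7 in WT replicates 7 to 9. KO replicates 4 to 6 held 7, 28 and 2 counts at 0 hr, against 7, 13 and 8 in WT replicates 1 to 3. The groups overlapped at both times, and KO 0 hr replicate 5 alone held 28 of the 37 KO counts. A count of 0 allows up to 3 counts, or 0.0778 CPM in KO 48 hr replicate 12 and 0.081 CPM in WT 48 hr replicate 8. Scaled by library size, the ratio of summed counts in KO to those in WT was 1.66 at 48 hr (22 against 13 counts, exact 95% interval 0.801 to 3.59) and 1.17 at 0 hr (37 against 28 counts, 0.698 to 1.99). The 48 hr to 0 hr ratio was 0.943 in KO (0.530 to 1.64) and 0.664 in WT (0.316 to 1.33). These intervals cover counting error only, and they all include 1.

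Sdc1, the CD138 gene (chromosome 12, 8771323 to 8793715, plus strand), was about 2-fold higher in KO at both times. At 48 hr KO replicates 10 to 12 held 11.5, 13.6 and 9.78 CPM, against 5.30, 5.81 and 5.30 CPM in WT replicates 7 to 9. At 0 hr KO replicates 4 to 6 held 12.6, 21.6 and 21.9 CPM, against 10.5, 10.0 and 7.12 CPM in WT replicates 1 to 3. KO libraries lay above WT libraries without overlap at both times, and KO 0 hr replicate 4 was closest to WT. The fold change was 2.13 at 48 hr (log2 1.09, SE 0.23, 95% interval 0.59 to 1.59, adjusted p = 0.029) and 2.03 at 0 hr (log2 1.02, SE 0.23, 95% interval 0.54 to 1.51, adjusted p = 0.048). The difference between these effects was 0.06 (95% interval -0.62 to 0.75, adjusted p = 0.98).

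Both Sdc1 calls lay near the threshold. At 48 hr the call needed every WT library of that time (adjusted p 0.15, 0.11 and 0.14 without replicate 7, 8 and 9) and KO replicates 10 and 11 (0.091 and 0.17 without them), and it was lost with limma-voom (0.10). At 0 hr it was lost in 10 of 12 fits, all but those without KO 0 hr replicate 4 or KO 48 hr replicate 12, with adjusted p of up to 0.24 without WT 0 hr replicate 3, and also with relative log expression scaling (0.051) and in a fit of the 6 libraries of 0 hr alone (0.16). The log2 values stayed between 0.91 and 1.20 at 48 hr and between 0.87 and 1.24 at 0 hr over these fits. Without KO 48 hr replicate 12 and KO 0 hr replicate 6 together they were 1.20 (adjusted p = 0.011) and 0.89 (adjusted p = 0.066).

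With stimulation Sdc1 fell in both genotypes. Its level was 11.6 ± 1.92 CPM at 48 hr and 18.7 ± 5.29 CPM at 0 hr in KO (log2 fold change -0.68, SE 0.23, adjusted p = 0.015), where the libraries overlapped, and 5.47 ± 0.293 CPM at 48 hr and 9.19 ± 1.81 CPM at 0 hr in WT (-0.75, SE 0.23, adjusted p = 0.0098; n = 3 each). The KO call was lost without KO 0 hr replicate 5 (adjusted p = 0.058) or 6 (0.065) or KO 48 hr replicate 12 (0.061). Relative to the median of all genes the changes were -0.38 in KO and -0.36 in WT. In bulk RNA, a change in the number of CD138-bearing cells and a change in Sdc1 RNA per cell cannot be told apart.

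Epithelial markers are given beside Sdc1 because epithelia make syndecan-1. The summed level of the 9 epithelial and stromal markers was 8.14 to 23.1 CPM in KO and 4.55 to 5.05 CPM in WT at 48 hr, and 25.9 to 36.2 CPM in KO and 14.0 to 25.4 CPM in WT at 0 hr. Krt8 had 0 counts in the KO 48 hr libraries. At 48 hr 1 of 9 markers was called, Epcam, an adhesion molecule also listed below among plasma cell surface genes. Epcam alone made up most of each 48 hr sum. The median log2 fold change of KO against WT over the 9 markers was -0.46 at 48 hr and -0.14 at 0 hr. At 0 hr edgeR called 0 of 9 (DESeq2 0), with 2 under an unadjusted p of 0.05. Without KO 48 hr replicate 12 and KO 0 hr replicate 6, Epcam was the 1 marker called at each time. Epcam had 15.6, 20.7 and 7.44 CPM in KO replicates 10 to 12 and 30.7, 31.3 and 6.04 CPM in KO replicates 4 to 6, against 2.53 to 3.19 CPM in WT at 48 hr and 6.91 to 10.0 CPM in WT at 0 hr. Across KO replicates 10 to 12 Sdc1, at 11.5, 13.6 and 9.78 CPM, had the same order as Epcam. Across KO replicates 4 to 6 Sdc1, at 12.6, 21.6 and 21.9 CPM, had a different order from Epcam. The part of these cells in the Sdc1 result was not tested.

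Cd38 (chromosome 5, 43868553 to 43912375, plus strand) fell with stimulation in both genotypes and had no called genotype difference. At 48 hr KO replicates 10 to 12 held 85.3, 88.7 and 132 CPM, against 84.1, 99.0 and 96.2 CPM in WT replicates 7 to 9. At 0 hr KO replicates 4 to 6 held 350, 355 and 390 CPM, against 428, 523 and 404 CPM in WT replicates 1 to 3. The genotypes overlapped at 48 hr, and at 0 hr all KO libraries lay below all WT libraries. Relative to WT, the KO log2 values were 0.13 at 48 hr (95% interval -0.21 to 0.47, adjusted p = 0.78) and -0.31 at 0 hr (-0.64 to 0.03, adjusted p = 0.54). The 48 hr value turned to -0.10 without KO 48 hr replicate 12, the highest library.

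Cd38 fell to 102 ± 25.8 CPM in KO at 48 hr, against 365 ± 21.8 CPM at 0 hr (log2 fold change -1.84, SE 0.16, adjusted p = 2.2e-07), and to 93.1 ± 7.88 CPM in WT at 48 hr, against 451 ± 62.9 CPM at 0 hr (-2.28, SE 0.16, adjusted p = 2.5e-08; n = 3 each). Relative to the median of all genes the changes were -1.54 and -1.89. The difference between genotypes in this change was 0.44 (95% interval -0.04 to 0.92, adjusted p = 0.64). The annotation places 2 other genes, Gm16014 and Gm16015, within the span of Cd38, and neither overlaps its exons.

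Cd93 (chromosome 2, 148436640 to 148443563, minus strand) separated the KO from the WT libraries at 0 hr and divided the KO libraries at 48 hr. At 48 hr KO replicates 10 to 12 held 11.8, 13.0 and 4.46 CPM, against 5.61, 6.08 and 4.43 CPM in WT replicates 7 to 9. At 0 hr KO replicates 4 to 6 held 8.35, 7.84 and 7.73 CPM, against 4.28, 4.21 and 4.62 CPM in WT replicates 1 to 3. KO 48 hr replicate 12 fell among the WT libraries, whereas KO 0 hr replicate 6 stood with the other KO libraries. With all 12 libraries the log2 values were 0.86 at 48 hr (SE 0.31, 95% interval 0.20 to 1.52, adjusted p = 0.19) and 0.87 at 0 hr (SE 0.31, 0.21 to 1.52, adjusted p = 0.27), and neither was called.

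Leaving out KO 48 hr replicate 12 made Cd93 a call at both times, at 1.21 at 48 hr (adjusted p = 0.0032) and 0.87 at 0 hr (adjusted p = 0.029). The 4 groups share one estimate of spread, the 0 hr value itself did not move, and the 48 hr value with all libraries was 0.86. It also made the change over time in KO a call, at 0.64 (adjusted p = 0.010), against 0.29 with all libraries (adjusted p = 0.40). In WT the change over time was 0.30 (95% interval -0.36 to 0.96, adjusted p = 0.39). With upper-quartile scaling the values over time turned to -0.33 in KO and -0.38 in WT. Endothelial and myeloid markers are given beside this gene because those cells carry CD93. The 10 endothelial markers summed to 53.1 to 66.0 CPM in KO and 66.0 to 71.5 CPM in WT at 48 hr, and to 140 to 184 CPM in KO and 160 to 213 CPM in WT at 0 hr. Pecam1 alone made up most of these sums. The median log2 fold change of KO against WT over the 8 tested endothelial markers was 0.34 at 48 hr and -0.05 at 0 hr. None of the 10 markers had 0 counts throughout a group. EdgeR called 0 of 8 tested at 48 hr (DESeq2 1), with 5 under an unadjusted p of 0.05, and 0 of 8 at 0 hr (DESeq2 1), with 1 under that value. The 5 under that value at 48 hr ran in both directions, and are named after their values were seen. Higher in the mean of KO replicates 10 to 12 than in that of WT were Cdh5 (0.542, 0.528 and 0.104 CPM, against 0.0515 to 0.0768 CPM), Kdr (1.63, 0.791 and 0.233 CPM, against 0.232 to 0.351 CPM) and Egfl7 (15.4, 17.4 and 4.95 CPM, against 4.62 to 5.79 CPM), and for each of them replicate 12 was the lowest of the 3 KO libraries. Lower in KO were Pecam1 (45.8, 46.5 and 47.1 CPM, against 60.02 to 64.9 CPM) and Stab2 (0, 0 and 0.0259 CPM, against 0.0773 to 0.102 CPM). Without KO 48 hr replicate 12 and KO 0 hr replicate 6, the fit in which Cd93 was called, Cdh5, Kdr and Egfl7 were called higher in KO at 48 hr and Egfl7 at 0 hr. The 13 myeloid markers summed to 73.4 to 83.8 CPM in KO and 100 to 103 CPM in WT at 48 hr, where Mpo and Ly6g had 0 counts in WT, and to 165 to 479 CPM in KO and 171 to 330 CPM in WT at 0 hr. Flt3 alone made up most of the 48 hr sums, at 58.1, 47.8 and 64.2 CPM in KO replicates 10 to 12 and 84.0 to 86.5 CPM in WT. Lyz2 held 8.03, 19.9 and 3.40 CPM in these KO replicates, against 3.92 to 5.67 CPM in WT. With all 12 libraries edgeR called 0 of 12 tested myeloid markers at 48 hr (DESeq2 1), with 2 under an unadjusted p of 0.05. At 0 hr edgeR called 0 (DESeq2 0), with 0 under that value. Of the myeloid markers, the fit without the 2 KO libraries called 1 higher (Lyz2, at 1.61) and 1 lower (Flt3, at -0.69) at 48 hr, and 0 at 0 hr. Both are named after their values were seen. The part of these cells in the Cd93 values was not tested.

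**Figure D3:**
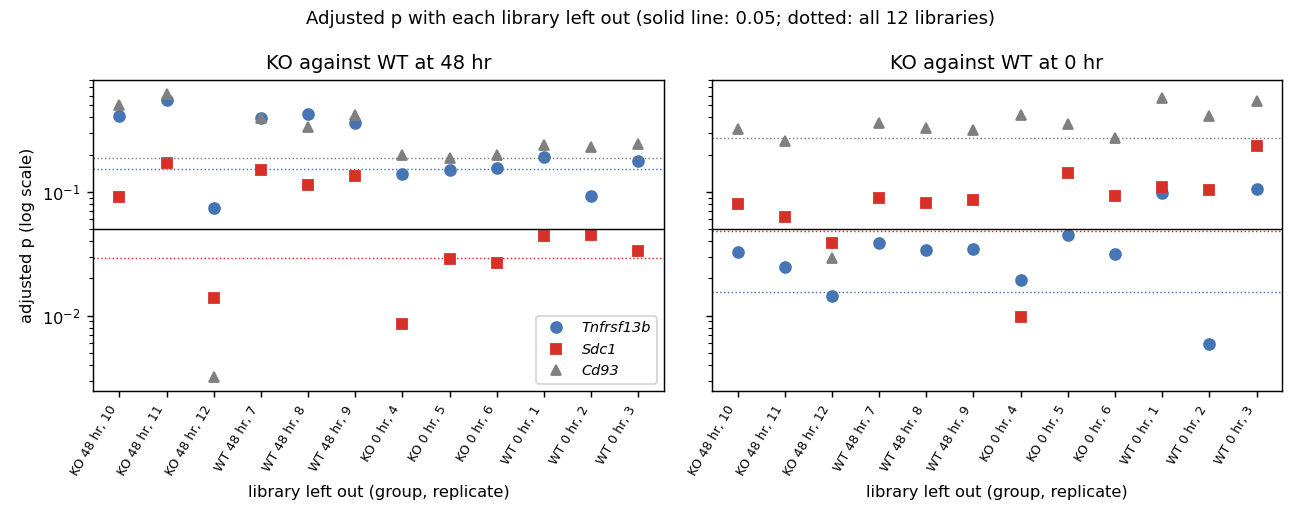
Adjusted p (log axis) of KO against WT for Tnfrsf13b, Sdc1 and Cd93 with each library left out in turn, at 48 hr and at 0 hr; the solid line is 0.05 and dotted lines are the values with all 12 libraries. Sdc1 crosses the line in both panels, Tnfrsf13b at 0 hr crosses it without WT 0 hr replicate 1 or 3, and Cd93 falls below it without KO 48 hr replicate 12.

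Transcript shares were compared because 3 of the genes have several transcript entries. Salmon divides reads among overlapping transcripts, so these shares are estimates. For Tnfrsf13b, uc007jhb.1 took 53.3% of the counts in KO and 57.3% in WT at 48 hr, and 70.7% in KO and 67.8% in WT at 0 hr. The entry uc011xvu.1 took 31.0% in KO and 27.8% in WT at 48 hr, and 19.7% in KO and 21.2% in WT at 0 hr. In both genotypes the libraries of the 2 times did not overlap in these shares. All 3 Tnfrsf13b entries rose with stimulation when tested as separate features, by log2 1.06 to 2.18 in KO and 1.55 to 2.22 in WT (edgeR over 36629 transcripts, adjusted p at most 0.0001).

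For Tnfrsf13c, uc007wyj.1 took 56.5% of the counts in KO and 59.3% in WT at 48 hr, and 72.3% in KO and 68.5% in WT at 0 hr. The entry uc007wyk.1 took 39.1% in KO and 37.8% in WT at 48 hr, and 23.3% in KO and 27.8% in WT at 0 hr. The minor uc007wyl.1 stayed between 2.67% and 5.15% in every library. With stimulation uc007wyk.1 rose in both genotypes, by 0.84 in KO (adjusted p = 1.7e-05) and 1.06 in WT (adjusted p = 2.5e-06). The major uc007wyj.1 fell by 0.27 in KO (adjusted p = 0.045) and rose by 0.41 in WT (adjusted p = 0.0057). Sdc1 counts came from uc007nac.1 except for 86 counts of uc007nad.1 in KO 0 hr replicate 4 and 24 in WT 48 hr replicate 9. Between genotypes edgeR called 0 of the 7 tested entries of Tnfrsf13b, Tnfrsf13c and Sdc1 at either time, with 5 under an unadjusted p of 0.05 at each time, and no other tool was run on transcripts. At 0 hr the lowest adjusted p was 0.093, for uc007jhb.1 of Tnfrsf13b, with a log2 value of 0.71.

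**Figure D4:**
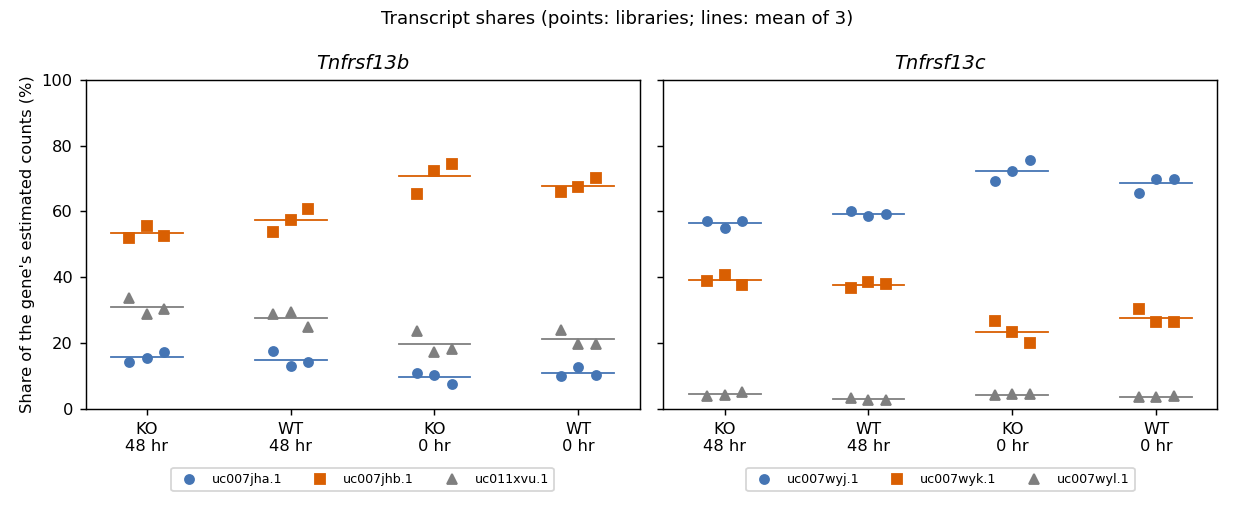
Share of the estimated counts of Tnfrsf13b and Tnfrsf13c given to each transcript, in percent, by group; points are libraries and lines are means of 3. At 48 hr the leading transcript of each gene holds a smaller share than at 0 hr in both genotypes, 53.3% and 70.7% for uc007jhb.1 in KO.

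Genes of the same pathways were counted in lists chosen with earlier results of these data known. Of 17 tested BAFF and APRIL ligand and signalling genes, edgeR called 0 between genotypes at 48 hr (DESeq2 0) and 0 at 0 hr (DESeq2 2), with 3 under an unadjusted p of 0.05 at each time. Without KO 48 hr replicate 12 and KO 0 hr replicate 6, 1 was called at 48 hr, the adaptor gene Myd88, at -0.49 (adjusted p = 0.044), named after its value was seen. The list medians were -0.10 and -0.08, beside 0.01 and -0.001 for all tested genes. With stimulation and TMM scaling, which all list counts over time use, 8 of 17 rose and 5 fell in each genotype. These counts stand beside 33% of all genes called higher in each genotype, and 37.7% in KO and 40.9% in WT called lower. For this and every list below, counts between genotypes stand beside 1.47% of all genes called higher and 0.544% lower at 48 hr. At 0 hr they stand beside 0.68% called higher and 0.429% lower. Counts between genotypes without the 2 KO libraries stand beside 6.91% of all genes at 48 hr and 3.45% at 0 hr. Traf1, an adaptor of TNF receptors, rose by 2.55 in KO and 2.22 in WT, and Birc2, a ubiquitin ligase bound to TRAF2, by 2.23 and 1.64. Traf5 fell by 1.71 in KO and 1.78 in WT, and Map3k14, the NIK kinase of the pathway that BAFF-R activates, fell by 1.27 and 0.85 (adjusted p at most 0.00062 for these 4 genes in both genotypes).

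Of 14 sheddase and secretase genes, whose products cut TACI, BCMA or syndecans from the cell surface or regulate that cutting, edgeR called 0 between genotypes at 48 hr and 0 at 0 hr (DESeq2 0 at both), with 1 under an unadjusted p of 0.05 at each time. With stimulation 3 rose and 7 fell in KO, and 3 rose and 6 fell in WT. Aph1a, a subunit of gamma-secretase, rose by 0.96 in KO and 0.92 in WT (adjusted p = 6.8e-05 and 9.8e-05), and Rhbdf2, which encodes iRhom2, a regulator of ADAM17, fell by 1.42 and 1.40 (adjusted p = 3.9e-06 and 4.3e-06). Of 18 other TNF receptor family genes, edgeR called 0 at 48 hr (DESeq2 2) and 0 at 0 hr (DESeq2 0), with 5 and 3 under an unadjusted p of 0.05. Without the 2 KO libraries 3 were called at 48 hr, named after their values were seen: Fas at 0.53, Ltbr at 3.48 and Tnfrsf1a at 2.70, each higher in KO. With stimulation 5 rose and 5 fell in KO, and 5 rose and 9 fell in WT. The activation receptor gene Cd40 rose by 1.21 in KO and 1.54 in WT (adjusted p = 2.3e-07 and 1.8e-08), and Tnfrsf8, which encodes CD30, rose to 33.9 ± 13.2 CPM in KO and 25.0 ± 2.61 CPM in WT at 48 hr, against 0.105 and 0.200 CPM at 0 hr.

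Among 20 other plasma cell surface genes, 4 were higher in KO at 48 hr and none lower, beside 2.02% called over all genes. They were the tetraspanins Cd63 (log2 fold change 2.73) and Cd9 (1.13), Epcam (2.32) and the chemokine receptor gene Cxcr4 (0.74), named after its value was seen. At 0 hr Cd9 (0.92) and the tetraspanin gene Cd81 (0.53) were higher and Ly6a, which encodes Sca-1, was lower (-0.81). Without the 2 KO libraries, where calls over all genes were also more frequent, 4 were higher and 2 lower at 48 hr, and 4 higher and 2 lower at 0 hr. The list medians were 0.16 and 0.07. With stimulation 7 rose and 8 fell in KO, and 7 rose and 9 fell in WT.

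Among 14 plasma cell regulators and secretory genes, 4 were higher in KO at 48 hr and none lower. Prdm1, which encodes Blimp-1, the driver of plasma cell differentiation, averaged 41.3 ± 15.8 CPM in KO and 12.3 ± 2.25 CPM in WT (log2 fold change 1.74, adjusted p = 0.0048). Derl3, of endoplasmic reticulum protein degradation, was higher by 1.00, Zbtb20, a survival factor of plasma cells, by 0.86, and the elongation factor gene Ell2, named after its value was seen, by 0.51. At 0 hr edgeR called 0 of 14 (DESeq2 2, limma-voom 0), with 5 under an unadjusted p of 0.05. Without the 2 KO libraries 4 were higher at 48 hr, Prdm1 (1.38), Derl3 (0.98), Zbtb20 (0.97) and Bcl6, the germinal centre repressor (1.07), and Ell2 was not among them. In that fit Mzb1, of the secretory pathway, was higher by 0.68 at 0 hr, and Bcl6 was lower (-0.66). The genotype effect on Bcl6 at 48 hr exceeded that at 0 hr by 1.73 there (edgeR adjusted p = 0.0021). Mzb1 and Bcl6 are named after their values were seen. The list medians were 0.57 at 48 hr and 0.15 at 0 hr. With stimulation 7 rose and 6 fell in KO, and 6 rose and 6 fell in WT.

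For the heparan sulfate chains that syndecan-1 carries, 2 of 25 genes were higher in KO at 48 hr and none lower. Hs3st1, a 3-O-sulfotransferase, averaged 15.6 ± 2.30 CPM in KO and 7.93 ± 1.25 CPM in WT (log2 fold change 0.97, adjusted p = 0.0040), and its genotype effect at 48 hr exceeded that at 0 hr by 1.30 (adjusted p = 0.029). The related Hs3st3b1 was higher by 1.76 at 48 hr, at a mean of 2.66 CPM in KO and 0.781 CPM in WT, a level under 5 CPM, so it is named after its value was seen. It was also the 1 gene called at 0 hr, at 1.38. Without the 2 KO libraries 2 were higher at 48 hr and 3 at 0 hr, Hs3st3b1, the heparanase gene Hpse and the sulfotransferase gene Hs6st1 (1.54, 0.85 and 0.90), the last 2 named after their values were seen. With stimulation 7 of the 25 rose and 11 fell in each genotype, near the shares of all genes.

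For the NAD pathway around CD38, 2 of 22 genes were higher in KO at 48 hr and none lower: Enpp1, a surface nucleotide pyrophosphatase (1.90), and Nnt, the mitochondrial transhydrogenase (0.62). At 0 hr edgeR called 0 of 22 (DESeq2 1, limma-voom 0), with 4 under an unadjusted p of 0.05. With the 2 KO libraries left out, 2 were higher and 1 lower at 48 hr, and 1 lower at 0 hr, the surface nucleotidase gene Nt5e in both cases (-1.05 at 48 hr and -1.55 at 0 hr), named after its values were seen. With stimulation 10 rose and 5 fell in KO, and 9 rose and 7 fell in WT, among them Nampt, the rate-limiting enzyme of NAD salvage, which rose by 3.15 in KO and 2.90 in WT (adjusted p = 6.7e-10 and 1.2e-09). Of 15 B cell maturity markers, 2 were higher in KO at 48 hr, Cd24a, which is high on immature B cells (1.66, adjusted p = 6.4e-05), and Cd1d1, a lipid-presenting molecule of marginal zone B cells (0.59), and 1 at 0 hr, Cd1d1 (0.65). The fit without the 2 KO libraries, which called more of all genes too, had 3 higher and 5 lower at 48 hr, and 2 higher and 4 lower at 0 hr. With stimulation 1 rose and 11 fell in each genotype.

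Single libraries decided many of these list calls. Of those at 48 hr, Cd24a, Zbtb20 and Hs3st1 held in all 12 fits that left out 1 library (adjusted p at most 0.0017, 0.046 and 0.0497), Prdm1 was lost without WT 48 hr replicate 7 (0.051) and Cd9 without WT 48 hr replicate 7 or 9 (up to 0.059). Cd63, Enpp1, Derl3 and Cd1d1 each needed all 3 WT libraries of 48 hr and KO replicates 10 and 11, with lost calls at adjusted p of up to 0.091, 0.11, 0.14 and 0.16. Epcam and Nnt were lost without any of these 5 libraries or any WT 0 hr library (up to 0.17 and 0.23), and Cxcr4 without those 8 or KO 0 hr replicate 4 (up to 0.23). Ell2 held in 2 fits, those without KO 0 hr replicate 4 or 5, and Hs3st3b1 was lost without WT replicate 8 or 9 or KO replicate 11. At 0 hr, Cd1d1 was lost without WT 0 hr replicate 1 (0.061), while Cd9 held in 7 of 12 fits, Cd81 in 5, Hs3st3b1 in 4 and Ly6a in 3, and the lost calls of these 4 genes reached an adjusted p of 0.12, 0.16, 0.14 and 0.12. Among the markers of other cells, Zap70 at 0 hr held in 2 of 12 fits, those without KO 0 hr replicate 6 or KO 48 hr replicate 12 (up to 0.16), and Prf1 at 48 hr in 7, being lost without the same 5 libraries as Cd63 (up to 0.13). The Hs3st1 difference between times held in 3 fits, those without KO 0 hr replicate 5 or 6 or KO 48 hr replicate 12. The time changes named above for Traf1, Birc2, Traf5, Map3k14, Aph1a, Rhbdf2, Cd40, Tnfrsf8 and Nampt held in all 12 fits. The counts between genotypes also turned on the tool. For the plasma cell surface, regulator, heparan sulfate, NAD and maturity lists, limma-voom called 1, 3, 1, 0 and 1 at 48 hr. DESeq2 called 5, 6, 2, 2 and 6 there, and edgeR 4, 4, 2, 2 and 2. At 0 hr limma-voom called 3, 0, 3, 0 and 1, DESeq2 4, 2, 5, 1 and 3, and edgeR 3, 0, 1, 0 and 1. Limma-voom called 0 NK cell and 0 epithelial markers at 48 hr, and 0 T cell markers at 0 hr.

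**Figure D5:**
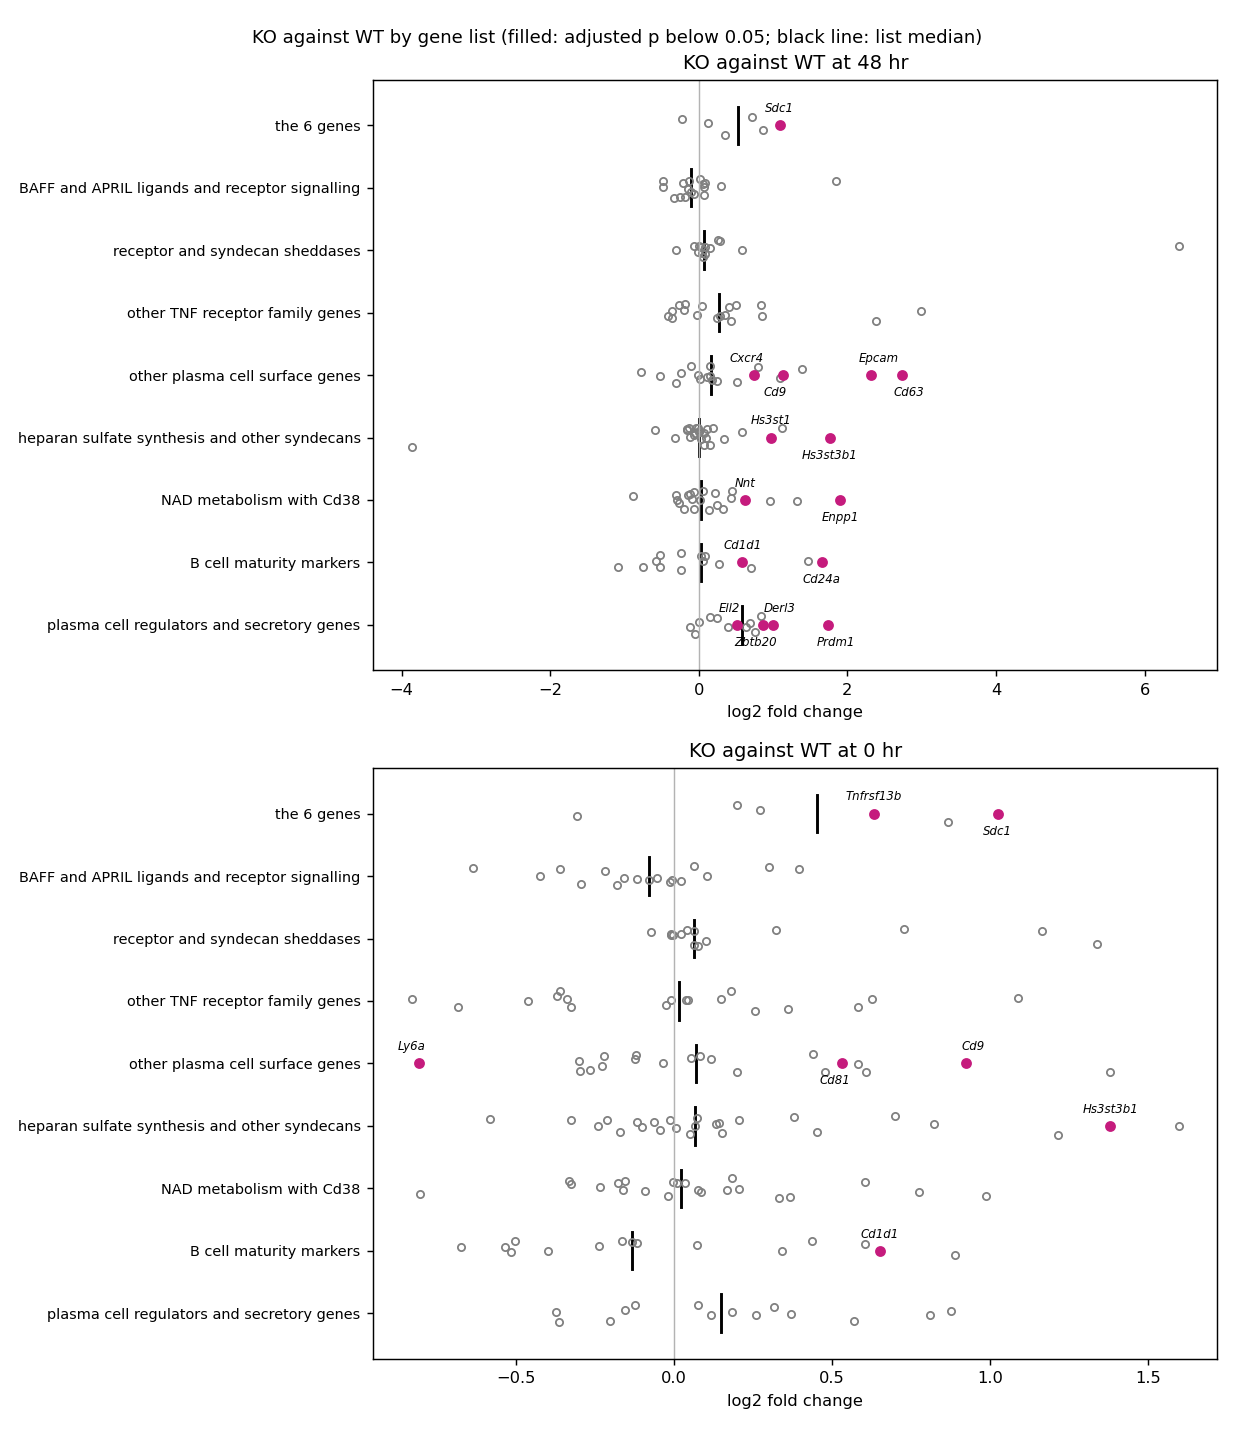
Log2 fold changes of KO against WT for the 6 genes and for the members of 8 lists, at 48 hr and at 0 hr, on separate axes; points are genes, filled points have an edgeR adjusted p below 0.05 and are named, and black lines are list medians. Filled points lie to the right of 0 except Ly6a at 0 hr.

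B cell identity was checked with Cd79a, Cd79b and Ms4a1. At 48 hr they summed to 4365 to 4953 CPM in KO and 4607 to 5266 CPM in WT. At 0 hr they summed to 5052 to 6470 CPM in KO and 4596 to 6071 CPM in WT. These sums hide opposite changes over time. Cd79a held 789 to 910 CPM in KO and 855 to 950 in WT at 48 hr, against 2273 to 2825 and 2308 to 2671 at 0 hr. Ms4a1 held 2440 to 2769 CPM in KO and 2326 to 2624 in WT at 48 hr, against 1484 to 1964 and 1075 to 1737 at 0 hr. T cell markers summed to 46.9 to 116 CPM in KO and 40.2 to 44.7 CPM in WT at 48 hr, and to 62.6 to 132 CPM in KO and 65.1 to 72.6 CPM in WT at 0 hr, with 1 of 10 called at 0 hr (Zap70, higher in KO) and 0 at 48 hr (DESeq2 1, and 2 under an unadjusted p of 0.05). Lck alone made up most of these sums. It held 110, 108 and 41.9 CPM in KO replicates 10 to 12, against 35.2 to 39.4 CPM in WT at 48 hr. At 0 hr it held 90.8, 85.7 and 43.6 CPM in KO replicates 4 to 6, against 41.1 to 44.2 CPM in WT. The highest value of any other T cell marker at 48 hr was 2.35 CPM, for Cd8b1 in KO replicate 11. NK cell markers summed to 4.07 to 13.0 CPM in KO and 3.84 to 5.21 CPM in WT at 48 hr, where Klra8 had 0 counts in WT and 1 of 8 was called (Prf1, higher in KO). At 0 hr they summed to 15.3 to 32.4 CPM in KO and 13.7 to 18.6 CPM in WT. There edgeR called 0 of 8 (DESeq2 1), with 1 under an unadjusted p of 0.05. Erythroid and platelet markers summed to 6.33 to 15.2 CPM in KO and 12.2 to 14.99 CPM in WT at 48 hr, and to 346 to 3383 CPM in KO and 629 to 936 CPM in WT at 0 hr. Without the 2 KO libraries 1 T cell marker (Lck, at 1.57) and 1 NK cell marker (Prf1, at 2.58) were called at 48 hr. In that fit 2 T cell markers (Lck at 1.03 and Zap70 at 2.34) and 1 NK cell marker (Gzma at 2.11) were called at 0 hr. All were higher in KO, and Lck and Gzma are named after their values were seen. EdgeR called no erythroid or platelet marker at either time, with or without the 2 KO libraries. With all 12 libraries DESeq2 called 1 of 7 at 48 hr and 0 at 0 hr, and 1 was under an unadjusted edgeR p of 0.05 at 48 hr. The part of these cells in the values of the 6 genes was not tested.

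The genes whose pattern was most like each member's were ranked by Pearson r of log2(CPM + 0.5) over the 12 libraries, as a description, since the 12 points share 4 groups and their depth. Sdc1 was most like Serpine2 (r = 0.942), Tle3 (0.931) and Tmem2 (0.912), and 8 of 9743 genes passed 0.9. Serpine2, a protease inhibitor gene, averaged 6.23 CPM in KO and 1.32 CPM in WT at 48 hr, and 11.1 CPM in KO and 3.12 CPM in WT at 0 hr, the same order of group means as Sdc1. Tnfrsf13c was most like Tlcd2 (0.968), Cradd (0.960) and Aldh16a1 (0.956), with 28 genes over 0.9. Cd93 was most like Ttc3 (0.926), As3mt (0.891) and Ccdc112 (0.890), with 1 gene over 0.9. Tnfrsf13b and Cd38, whose patterns divide 48 hr from 0 hr, had 3613 and 1319 genes over 0.9. Those of Tnfrsf13b were led by Tuba1c (0.994), Asun and Zfp706 (0.993 each). Those of Cd38 were led by Fmo5 (0.995), Ipcef1 (0.994) and Tcp11l2 (0.992). Tnfrsf17 had none over 0.9 of 9744, and its nearest were Casz1 (0.823), Sema4a (0.820) and Dhx57 (0.801).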

How the data were processed

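Per the labels' protocols, RNA was purified by TRIzol and RNeasy columns, 2 ng of it entered SMART-Seq v4 amplification (12 cycles), and KAPA Hyper libraries (8 cycles) were read as paired ends. The kit does not mark strand. Estimated counts per transcript were deposited by the authors as whole numbers. Per the submitters' processing notes, bcl2fastq 2.20.0.422, Trimmomatic 0.36, Salmon 0.8.2, DESeq2 1.14.1 and the mm10 build were used.

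The 63759 transcript counts were added up by symbol, with the trailing spaces of 344 names trimmed first, which gave 32699 symbols. Genes were filtered with edgeR's filterByExpr (count minimum 10) and scaled by TMM (factors 0.723 to 1.42). One model of the 4 groups took all 12 libraries (edgeR 4.0.16, R 4.3.3, robust quasi-likelihood F test, 8 residual degrees of freedom, no covariate), with Benjamini-Hochberg adjustment over 19125 genes, and calls needed an adjusted p under 0.05. The procedure was tested on simulated data. Alternatives used DESeq2 1.42.0, limma-voom (limma 3.58.1), other scalings and filters, other fits and left-out libraries, and, added after the data were seen, each transcript as its own feature.

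The members and lists were chosen with earlier results of these data known. Beside the members, list genes were named if called, at most 3 per direction and comparison by size, with a mean of 5 CPM or more in the higher group, and genes named outside this rule are stated as such. Positions are from GENCODE M21 (mm10), promoters from RefSeq (GRCm38.p6, 5 of 6 matched). Figures were drawn with matplotlib 3.10.9. One marker gene is not reported here.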

Additional observations from a re-analysis of the deposited data

Results flagged for a closer look

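Tnfrsf13c stood out because its genotype differences ran in opposite directions at the 2 times. All 3 KO libraries were lower than all 3 WT libraries at 48 hr (421 to 469 CPM in KO and 520 to 528 CPM in WT), and all 3 KO libraries were higher at 0 hr (389 to 461 CPM in KO and 334 to 360 CPM in WT). The difference between the effects was -0.49 on the log2 scale (95% interval -0.78 to -0.20). With edgeR it was not called (adjusted p = 0.27, and 0.17 to 0.52 over the fits that left out 1 library), while DESeq2 called it at -0.55 (adjusted p = 0.0016).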

How the results depend on the processing

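With 6 genes, the counts of called members turn on single genes. At 0 hr, where 2 were called, relative log expression scaling gave 1, a fit of the 6 libraries alone gave 0, and leaving out 1 library gave 0 to 3. At 48 hr, where 1 was called, DESeq2 gave 2, limma-voom 0, leaving out KO 48 hr replicate 12 and KO 0 hr replicate 6 together gave 2, and leaving out 1 library gave 0 to 2. DESeq2 called 1 in the difference between the genotype effects, where edgeR called 0. Calls over all genes ran from 136 to 1351 at 48 hr (386 as reported), from 75 to 674 at 0 hr (212), both highest without the 2 KO libraries, and from 3 to 221 for the difference (22), highest with DESeq2. The causes were not tested.

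Directions that turned were mostly of uncalled values. For KO against WT, Tnfrsf17 at 0 hr was -0.41 with limma-voom and -1.11 to 0.71 over the fits that left out 1 library, Cd38 at 48 hr was -0.10 without the 2 KO libraries and -0.10 to 0.24 over the single fits, and uc007wyl.1 of Tnfrsf13c was 0.36 at 48 hr. Over time, upper-quartile scaling gave -0.55 in KO and -0.10 in WT for Tnfrsf13c and -0.33 in KO and -0.38 in WT for Cd93. In KO, Tnfrsf13c was -0.10 with a filter of 1 CPM in 3 libraries and -0.27 for uc007wyj.1, Tnfrsf17 was -0.73 to 1.22 and Cd93 -0.010 to 0.64 over the single fits. For the difference, Cd93 was 0.045 with upper-quartile scaling, 0.32 without the 2 KO libraries and -0.32 to 0.34 over the single fits, Sdc1 -0.15 to 0.22 and Tnfrsf17 -0.12 to 1.83. No paired analysis was possible because each replicate number is used once. Depth limits Tnfrsf17 alone among the 6, at 0 to 28 counts per library.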
